A study of Homo sapiens with 18 samples.

Results

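The genes SPP1, FRMD3, NCAM1, ALPP, TUBA1A, BMF and CLU were followed across 3 established human lines of head and neck squamous carcinoma in which the level of the transcription factor EHF was changed. They are 7 of the 23710 genes in each deposited count table and were found there by symbol. They were selected on their log2 changes, as genes whose response differed between lines: 6 of them were among the largest changes in A253, and for CLU the comparison that led to its choice is not recorded. The values in A253 and the difference between A253 and SCC25 are therefore given as a description, without p-values. The SCC25 and CAL27 values were also known when the genes were called line-specific, so their p-values do not stand as independent support.

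Messenger RNA was sequenced in 16 libraries. A253 (a salivary gland carcinoma line) gave 3 control libraries from cells in regular medium and 3 from cells overexpressing EHF in medium with doxycycline. SCC25 (a tongue carcinoma line) gave 2 and 2 libraries of the same kinds, and CAL27 (also from tongue) gave 2 control libraries and 2 from each of a pair of EHF knockdowns, all in regular medium. The inducer was given as 1 ug of doxycycline without a volume, and only overexpressing cells received it, so doxycycline and EHF cannot be told apart in A253 and SCC25. The knockdowns are called sh 64 and sh 65 here, as in the count table. The labels number them 1 and 2 and do not tie those numbers to these names. Neither the expression vector, the hairpin sequences nor the clonality of the cells is given in the sources used here. The labels leave unsaid whether replicates came from separate cultures, and the p-values then reflect only how far these libraries differ, which may be technical. Each library is bulk RNA, in which fewer cells expressing a gene and less RNA per cell cannot be told apart.

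EHF belongs to the ETS family, whose members bind DNA around the core sequence GGAA, and it is expressed mainly in epithelia. SPP1 encodes osteopontin, a secreted phosphoprotein of bone and of many carcinomas that binds integrins and CD44, and CLU encodes clusterin, a secreted chaperone that binds misfolded proteins and complement. NCAM1 is a neural cell adhesion molecule, ALPP is the placental alkaline phosphatase held on the cell surface by a lipid anchor, TUBA1A is an alpha tubulin of microtubules, BMF is a BH3-only protein that promotes apoptosis, and FRMD3 is a protein 4.1 relative with a FERM domain.

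RefSeq promoter sequences (build GRCh38.p14) were matched by symbol for 5 of the 7 genes. NCAM1 had no sequence among those given, and none was used for CLU. The 250 bases before the start are shown for the genes with the largest rises, SPP1 and FRMD3 (starts 1 and 2 of 4 listed), and for 2 that were lower in A253, ALPP and TUBA1A, since an ETS factor was the agent changed. Capitals mark the core GGAA, read on either strand, so that it appears as TTCC where it lies on the other strand.
SPP1, chr4:87975464-87975713, plus strand: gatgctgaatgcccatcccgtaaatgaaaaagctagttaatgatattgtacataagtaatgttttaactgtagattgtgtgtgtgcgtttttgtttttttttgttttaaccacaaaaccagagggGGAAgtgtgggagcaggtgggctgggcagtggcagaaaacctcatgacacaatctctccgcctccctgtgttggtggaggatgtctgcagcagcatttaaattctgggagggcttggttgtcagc
FRMD3 start 1, chr9:83538402-83538651, minus strand: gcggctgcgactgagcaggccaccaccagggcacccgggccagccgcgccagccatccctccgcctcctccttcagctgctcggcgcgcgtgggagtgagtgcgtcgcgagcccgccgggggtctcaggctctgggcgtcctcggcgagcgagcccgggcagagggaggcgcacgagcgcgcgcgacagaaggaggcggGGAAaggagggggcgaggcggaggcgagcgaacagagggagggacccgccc
FRMD3 start 2, chr9:83331962-83332211, minus strand: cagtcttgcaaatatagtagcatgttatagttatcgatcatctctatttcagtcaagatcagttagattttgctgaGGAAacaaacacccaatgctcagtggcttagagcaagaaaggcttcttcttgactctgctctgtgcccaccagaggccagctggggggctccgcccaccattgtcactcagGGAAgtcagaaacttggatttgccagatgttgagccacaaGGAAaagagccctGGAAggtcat
ALPP, chr2:232378501-232378750, plus strand: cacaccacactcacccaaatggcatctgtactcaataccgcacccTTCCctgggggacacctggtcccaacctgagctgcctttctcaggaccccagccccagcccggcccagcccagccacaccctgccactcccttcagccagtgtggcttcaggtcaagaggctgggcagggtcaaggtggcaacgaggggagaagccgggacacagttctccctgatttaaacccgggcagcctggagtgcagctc
TUBA1A, chr12:49189081-49189330, minus strand: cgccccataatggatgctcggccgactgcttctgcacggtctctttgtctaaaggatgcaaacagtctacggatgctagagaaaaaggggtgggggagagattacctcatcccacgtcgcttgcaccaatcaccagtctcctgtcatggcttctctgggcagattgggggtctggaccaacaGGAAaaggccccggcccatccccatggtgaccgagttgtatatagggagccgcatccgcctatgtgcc
Every one of these windows held the core, but so did 92.7% of 35116 RefSeq promoter windows of the same length. The longer form GGAAGT, of which the core is a part, was found in 19.5% of all windows. It was present in the SPP1 window, 125 bases before the start, and before FRMD3 start 2, 63 bases before it, and it was not found in the windows of the other 3 FRMD3 starts, ALPP or TUBA1A. BMF, not printed, held GGAAGT before its start 2 and only the shorter core before its start 1. In the SPP1 window the RUNX-type sequence AACCACA, which 3.65% of all windows hold on either strand, lay 143 bases before the start. These matches describe letters in a window, and binding of EHF to them was not tested.

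EHF itself followed the labels. In CPM, which are counts relative to the library total after TMM scaling over all 16 libraries, it was 84.6 ± 4.24 in A253 controls and 686 ± 69.1 with overexpression (SD, n = 3 each), a log2 change of 3.02. It went from 455 ± 27.5 to 899 ± 28.4 CPM in SCC25 (SD, n = 2 each; log2 change 0.99), and from 987 ± 45.1 CPM in CAL27 controls to 512 ± 14.8 with sh 64 and 452 ± 23.4 with sh 65 (SD, n = 2 each). Library totals ran from 7068155 to 19962159 counts. All 12 squamous and epithelial markers stood at or above 1 TPM, a level per transcript length, in every group, whereas salivary acinar markers were almost absent from A253, with 6 of 8 at 0 and summed levels of at most 0.236 TPM in controls. CAL27 held 42.7 to 142 TPM of them, mostly STATH and HTN3.

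Each of the 7 genes changed in A253, where 3 rose and 4 fell, whereas fewer did so in the other lines. Overexpression in A253 changed 7.97% of the 14503 genes tested (5.03% higher, 2.94% lower), and because that contrast chose the genes nothing is read from the 7 of 7. In SCC25, 3 of 6 tested members changed (FRMD3, BMF and CLU), all of them higher, and 23.9% of all genes did (12.2% higher, 11.6% lower). In CAL27, as the mean of both knockdowns, 2 of 4 tested members changed (ALPP and CLU), both higher, and 18.8% of all genes did (9.88% higher, 8.91% lower). NCAM1 was below the filter on low counts in SCC25, and SPP1, FRMD3 and NCAM1 were below it in CAL27. In a joint fit of A253 and SCC25 the effect differed between these lines for 5 of the 7 (all but NCAM1 and ALPP), beside 5.63% of all genes (2.39% higher, 3.25% lower), and nothing is read from that count, since the genes were called line-specific with these values known. EHF itself rose less in SCC25 than in A253 (-2.05 on the log2 scale), so line and the size of the EHF rise cannot be told apart. Here and below, changed, rose and fell mean an adjusted p under 0.05.

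**Figure D1:**
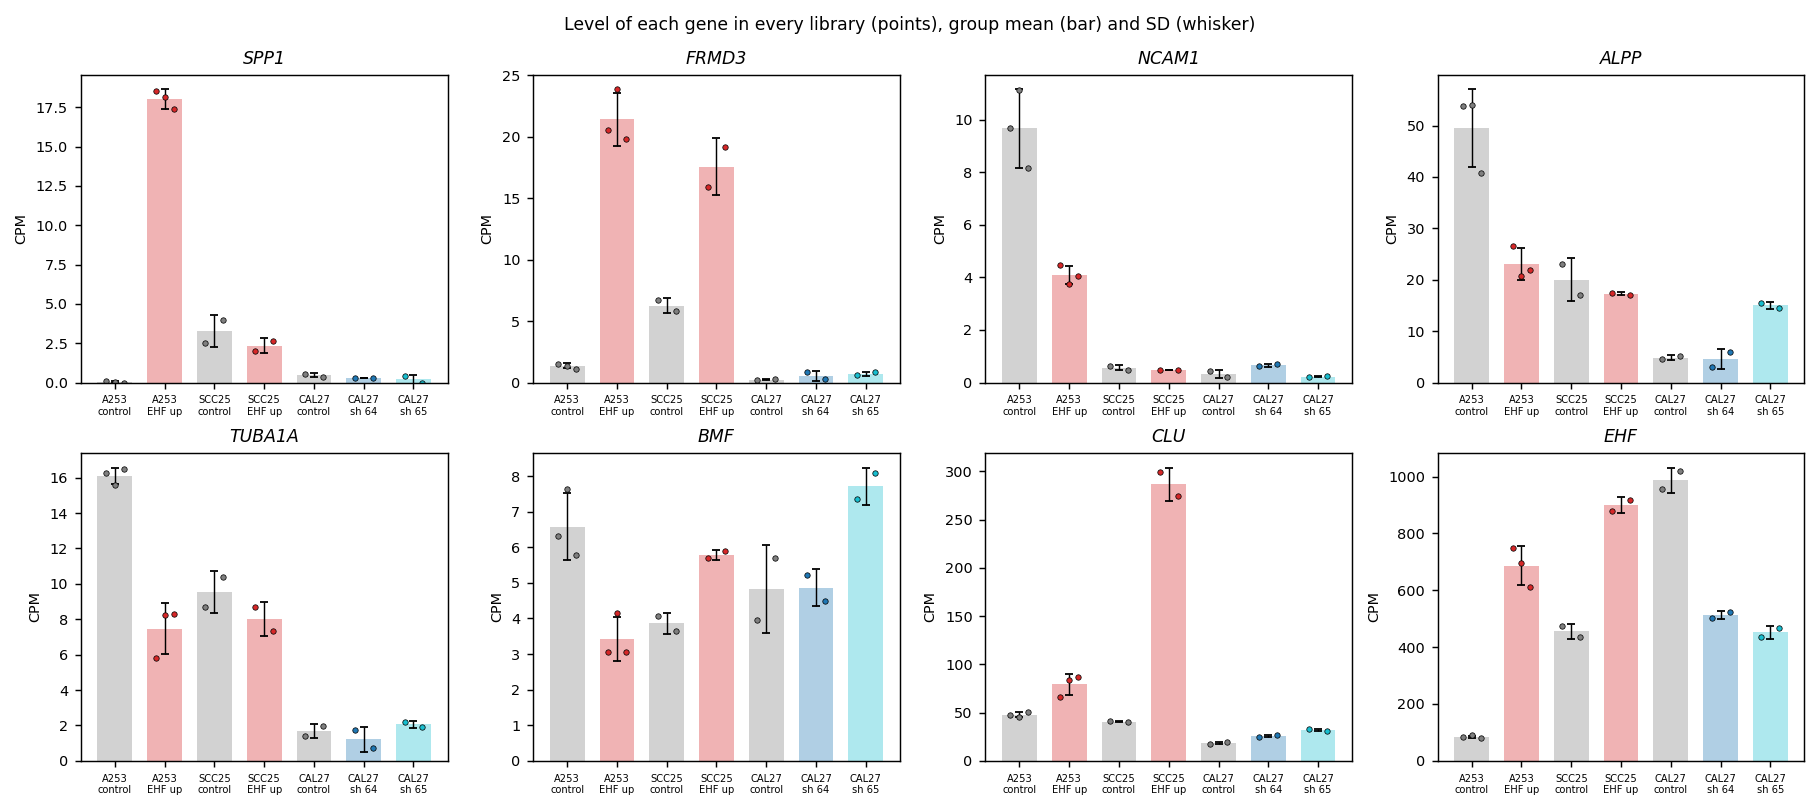
Level of the 7 genes and of EHF in CPM (vertical axes, each from 0) in every library (points), with the group mean (bar) and SD (whisker); EHF up stands for overexpression. SPP1 sits at 17.4 to 18.6 CPM in the 3 A253 overexpression libraries and at or below 3.996 CPM in the other 13, and CLU stands highest in the 2 SCC25 overexpression libraries.

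Osteopontin (SPP1) had the largest change of the 7. The A253 control libraries held 2, 1 and 0 counts of it, or 0.114, 0.0549 and 0 CPM, and the overexpression libraries held 266, 333 and 244 counts, or 18.6, 18.2 and 17.4 CPM. The groups lie far apart, and the overexpression libraries differ little among themselves. Summed over libraries, 843 counts stood against 3, a ratio of 284 after scaling (exact 95% interval 96.7 to 1378, counting error only). The count of 0 in control replicate 3 allows a level of up to 0.263 CPM (3 counts), so that the control level is known only roughly.

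In SCC25, where controls had some osteopontin RNA before EHF was raised, no rise was seen. Controls were at 2.54 and 3.996 CPM and overexpression libraries at 2.03 and 2.67 CPM, so the groups overlap. The log2 change was -0.42 (SE 0.26, adjusted p = 0.268 by edgeR's quasi-likelihood test), and the ratio of summed counts, 60 against 97, was 0.743 (exact 95% interval 0.529 to 1.04).

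CAL27 controls had the most EHF of any group, and all CAL27 libraries had next to no osteopontin RNA. Controls held 5 and 7 counts (0.549 and 0.363 CPM), sh 64 libraries 4 and 2 (0.312 and 0.281 CPM), and sh 65 libraries 4 and 0 (0.403 and 0 CPM, where 0 counts allow up to 0.362 CPM). With 10 counts against 12 the ratio was 0.62 (exact 95% interval 0.24 to 1.57), and a change was not detected. Ordered by level, SPP1 was highest in A253 with overexpression, then in SCC25 controls and SCC25 with overexpression, which overlap, then in the CAL27 groups and A253 controls, whose range overlaps that of sh 65. EHF level and SPP1 level were thus not in the same order over the lines: CAL27 controls had 987 CPM of EHF and 0.456 ± 0.131 CPM of SPP1 (SD, n = 2).

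The receptors and relatives of osteopontin changed less than SPP1 in A253, the contrast that chose SPP1, so nothing is read from that difference. Of 10 other tested genes of that list, which holds integrin subunits, CD44 and other secreted phosphoproteins, 1 rose and 1 fell in A253, with a median log2 change of 0.02 beside -0.0034 over all genes. FAM20C, the kinase that phosphorylates osteopontin, rose by 0.59 on the log2 scale, and the integrin subunit ITGB5 fell (-0.29). In SCC25, 4 of 9 rose and 3 fell. The largest rise there was that of ITGB3, a partner of ITGAV in an osteopontin receptor (0.62). In CAL27, 1 of 8 rose and 4 fell as the mean of both knockdowns. The epithelial subunit ITGB6 rose by 0.73 and ITGB5 fell (-0.50). With sh 64, 0 of 8 fell, beside 6.89% of all genes, and with sh 65, 4 of 8 fell, beside 7.01%. Over all genes, 5.03% rose and 2.94% fell in A253, 12.2% and 11.6% in SCC25, and 9.88% and 8.91% for the CAL27 mean.

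Markers of other cells that can make osteopontin were followed beside it. RUNX2, a factor of osteoblasts, led the osteoblast list, whose summed level was 2.63 to 6.90 TPM in A253 controls and 3.86 to 6.34 TPM with overexpression. The summed leukocyte and macrophage level was 137 to 143 TPM in A253 controls and 183 to 210 TPM with overexpression. Nearly all of it was CD68, a lysosomal protein of macrophages that is also found outside them, and the T cell gene CD3E was at 0. The part of this shift in the rise of SPP1 was not tested.

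Clusterin (CLU) was higher wherever EHF was changed, whether raised or lowered. In A253 the controls were at 48.0, 45.5 and 50.3 CPM and the overexpression libraries at 66.5, 83.9 and 87.4 CPM. No library of one group falls among the other, and the log2 change was 0.73 (SE 0.097). The SCC25 controls were close together, at 41.0 and 40.1 CPM, and overexpression brought 299 and 275 CPM, a log2 change of 2.83 (SE 0.059) and a 7.11-fold difference. CLU was the member with the largest change in SCC25. That change exceeded the one in A253 by 2.08 on the log2 scale. By level, the groups ran from SCC25 with overexpression down through A253 with overexpression, A253 controls, SCC25 controls, sh 65, sh 64 and CAL27 controls, and no neighbours in this order overlapped.

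CLU also rose with knockdown in CAL27. Controls were at 17.9 and 19.3 CPM, sh 64 libraries at 24.8 and 26.6 CPM and sh 65 libraries at 33.1 and 31.4 CPM. The 3 groups do not overlap. As the mean of both knockdowns the log2 change was 0.64 (SE 0.10, adjusted p = 0.000266 by edgeR's quasi-likelihood test). It was 0.47 with sh 64 (SE 0.12, adjusted p = 0.0119) and 0.82 with sh 65 (SE 0.12, adjusted p = 9.34e-05), and the difference between the knockdowns did not pass (0.36, adjusted p = 0.0876). Of the tested members 1 of 4 changed with sh 64, beside 15.7% of all genes (8.76% higher, 6.89% lower), and 3 of 4 with sh 65, beside 14.6% (7.62% higher, 7.01% lower). The call with sh 64 ended by DESeq2 (adjusted p = 0.0569), without control replicate 1 (0.108) or 2 (0.0826) and without sh 64 replicate 2 (0.0645).

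Complement regulators and lipoprotein receptors were tested beside clusterin. In A253, 3 of 8 other tested genes passed, all of them higher, with CD55, which blocks complement on the cell surface, higher by 1.60 on the log2 scale. In SCC25, 4 of 7 rose and 1 fell: CD55 rose by 0.63, and the lipoprotein receptor LRP8 fell (-0.53). In CAL27, as the mean of both knockdowns, 3 of 7 rose and 2 fell. The complement protease CFI (1.19) and the lipoprotein receptor VLDLR (0.66) rose there, while CD55 (-0.40) and LRP8 (-0.39) fell. With sh 64, 3 of 7 rose and 0 fell, where 8.76% of all genes rose and 6.89% fell. With sh 65, 0 rose and 2 fell, where 7.62% of all genes rose and 7.01% fell. CFI and VLDLR did not pass with sh 65 (adjusted p = 0.0587 and 0.0647 by edgeR's quasi-likelihood test). Over all genes, 5.03% rose in A253, 12.2% rose and 11.6% fell in SCC25, and 9.88% rose and 8.91% fell for the CAL27 mean. The fall of CD55 was that of sh 65 (-0.78), which differed from sh 64 by -0.76 (adjusted p = 0.00059 by edgeR's quasi-likelihood test). CD55 thus rose in both lines where EHF was raised and fell on average where it was lowered, whereas CLU rose in all 3 lines.

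NCAM1 was an A253 transcript. Control libraries of A253 had 9.69, 11.1 and 8.16 CPM and overexpression libraries 4.46, 3.77 and 4.05 CPM. All 3 overexpression libraries are below all 3 controls, and the log2 change was -1.25 (SE 0.14), a 2.38-fold lower level. Every SCC25 and CAL27 library was at or below 0.703 CPM. SCC25 held 17 counts in controls and 12 with overexpression, a ratio of 0.848 (exact 95% interval 0.369 to 1.88), and CAL27 held 8 in controls and 17 in both knockdowns, a ratio of 1.58 (exact 95% interval 0.647 to 4.23). Both intervals are wide, and that of SCC25 includes the ratio in A253, 0.412. The difference between the effects in SCC25 and A253 did not pass the threshold (1.02 on the log2 scale).

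No other tested neural adhesion molecule of the immunoglobulin class fell past the threshold in A253. Of all genes 2.94% fell there and 5.03% rose. NCAM1 was chosen on that contrast, so nothing is read from its falling alone. Of 9 other tested genes in A253, CADM1 alone passed by edgeR, and it rose (0.60). L1CAM, an axon guidance adhesion molecule, had a log2 change of -0.81 that did not pass (adjusted p = 0.0813). In SCC25, FGFR1, a growth factor receptor that NCAM1 can bind, fell (-0.96). In CAL27 the axonal NFASC rose with both hairpins (1.27 with sh 64, 1.30 with sh 65). L1CAM fell there with sh 64 (-1.46) but was at -0.03 with sh 65, and the difference passed (1.43, adjusted p = 0.0188 by edgeR's quasi-likelihood test). The neural marker list was carried by ENO2, an enolase also found outside neurons, at 14.9 to 17.7 TPM summed in A253 controls and 14.7 to 15.8 TPM with overexpression, and the neuronal RNA-binding protein ELAVL4 was at 0 in every group.

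ALPP fell in A253 and rose in 1 of the 2 CAL27 knockdowns. In A253 controls it was at 53.7, 54.0 and 40.7 CPM, and with overexpression at 26.6, 20.8 and 21.9 CPM. The groups do not overlap, and the log2 change was -1.10 (SE 0.13). In SCC25, controls at 23.0 and 17.04 CPM overlapped with overexpression at 17.5 and 17.06 CPM (log2 change -0.21, SE 0.12, adjusted p = 0.218 by edgeR's quasi-likelihood test). This value rests on the controls: leaving out control replicate 1 gave 0.029, and leaving out control replicate 2 gave -0.41, which passed (adjusted p = 0.0171).

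In CAL27 the 2 hairpins parted. Controls were at 4.50 and 5.14 CPM, sh 64 libraries at 3.12 and 5.91 CPM, and sh 65 libraries at 15.5 and 14.5 CPM. The sh 65 libraries are the only ones apart: they lie above every other CAL27 library, while the sh 64 libraries straddle the controls. The log2 change was -0.20 with sh 64 (SE 0.26, adjusted p = 0.654) and 1.65 with sh 65 (SE 0.21, adjusted p = 3.59e-05), and their difference was 1.85 (SE 0.23, adjusted p = 7.11e-05, edgeR's quasi-likelihood test). Of the 4 tested members this was the 1 that differed between hairpins, beside 5.34% of all genes (2.21% higher, 3.13% lower). EHF itself differed by -0.16 between sh 65 and sh 64 (adjusted p = 0.23). The mean of both knockdowns, 0.73 (SE 0.20, adjusted p = 0.0188), therefore averages unlike values, and its call ended when control replicate 1 (adjusted p = 0.118), control replicate 2 (0.108) or sh 64 replicate 2 (0.0837) was left out.

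ALPPL2, the germ cell alkaline phosphatase, is a near-identical copy of ALPP, so the split of reads between them is uncertain. In A253 its level went from 4.39, 4.45 and 4.47 CPM to 2.02, 1.91 and 2.21 CPM, with no overlap, a log2 change of -1.11. Reads may be shared with ALPP, which was chosen on that contrast. No p is therefore given, and the fall is not taken as independent of that of ALPP. Both genes fell by nearly the same amount, from 35.6 ± 6.37 to 16.4 ± 2.04 TPM for ALPP and from 3.66 ± 0.147 to 1.66 ± 0.0749 TPM for ALPPL2 (SD, n = 3). In SCC25 the change of ALPPL2 was 0.14 (adjusted p = 0.648 by edgeR's quasi-likelihood test), and in CAL27 it was below the filter. By level, ALPP was highest in A253 controls. A253 with overexpression and both SCC25 groups followed. SCC25 controls overlapped with both overexpression groups, which lay apart from each other. Next came sh 65, and CAL27 controls and sh 64, which overlapped, came last. Trophoblast markers, the usual company of placental alkaline phosphatase, summed to at most 1.37 TPM in any library.

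**Figure D2:**
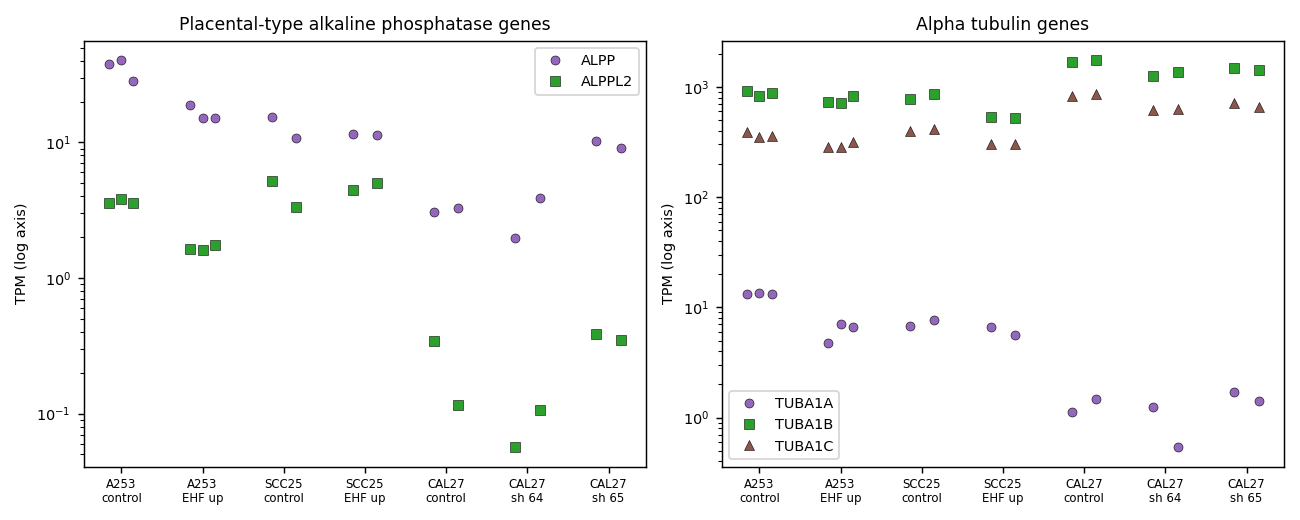
Levels per length in TPM (vertical log axis) of the placental-type alkaline phosphatase genes (left) and of 3 alpha tubulin genes (right), 1 point per library, by group. ALPP and ALPPL2 fall together in A253, and TUBA1A lies far below TUBA1B and TUBA1C in every library.

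TUBA1A was lower with overexpression in A253 and did not pass elsewhere. The A253 controls were tight, at 16.2, 15.6 and 16.5 CPM, and the overexpression libraries had 5.79, 8.24 and 8.32 CPM. The groups lie apart, with a log2 change of -1.10 (SE 0.12). SCC25 controls had 8.72 and 10.4 CPM and overexpression libraries 8.68 and 7.33 CPM, a log2 change of -0.26 (SE 0.15, adjusted p = 0.232 by edgeR's quasi-likelihood test). The ranges in SCC25 do not overlap, but they nearly touch. In CAL27 all 6 libraries were between 0.703 and 2.22 CPM, and the mean of both knockdowns differed from control by -0.06 (SE 0.32, adjusted p = 0.921). By level, A253 controls stood above SCC25 controls. SCC25 and A253 with overexpression overlapped below them, and the CAL27 groups were lowest. The CAL27 controls overlapped with each knockdown, whereas the knockdowns lay apart from each other.

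TUBA1A is a small part of the alpha tubulin of these lines. In A253 controls it was at 13.4 ± 0.13 TPM, beside 872 ± 38.2 TPM of TUBA1B and 365 ± 20.7 TPM of TUBA1C (SD, n = 3), whose coding sequences are near-identical to it, so the split of reads among the 3 is uncertain. Their log2 changes in A253 were -0.19 for TUBA1B, which did not pass, and -0.28 for TUBA1C, which fell. Of the other tested tubulins 3 of 16 passed in A253, 9 of 16 in SCC25 and 5 of 13 in CAL27 (mean of both knockdowns), and each of these fell. Over all genes tested the shares that fell were 2.94%, 11.6% and 8.91%. The median log2 change of these tubulins was -0.16 in A253, -0.35 in SCC25 and -0.15 in CAL27, beside -0.0034, 0.0026 and 0.0025 over all genes. In SCC25, where TUBA1A did not pass, the abundant TUBA1B fell (-0.65).

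FRMD3 rose in both lines in which EHF was raised. A253 controls were at 1.54, 1.37 and 1.14 CPM and overexpression libraries at 20.5, 23.9 and 19.8 CPM. The groups lie far apart, and the log2 change was 3.96 (SE 0.14), a 15.6-fold rise. In SCC25, controls at 6.68 and 5.82 CPM stood against 15.9 and 19.2 CPM, a log2 change of 1.51 (SE 0.14, adjusted p = 7.65e-09 by edgeR's quasi-likelihood test). Both overexpression groups ended at nearby levels whose ranges do not overlap, 21.4 ± 2.15 CPM (SD, n = 3) in A253 and 17.6 ± 2.32 CPM (SD, n = 2) in SCC25, from unlike control levels. The change in SCC25 minus that in A253 was -2.47 on the log2 scale, beside -2.05 for EHF itself.

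FRMD3 was barely present in CAL27: 0.219 and 0.259 CPM in controls, 0.858 and 0.281 with sh 64, and 0.604 and 0.845 with sh 65. The knockdown libraries are all above the controls, though by few counts, 26 against 7 in all, a ratio of 2.76 (exact 95% interval 1.17 to 7.54, counting error only). Without the filter the log2 change of the mean was 1.44 (SE 0.66) and did not pass (adjusted p = 0.135 by edgeR's quasi-likelihood test). Among 13 other tested relatives with FERM domains or spectrin, EPB41L1, a neuronal-type protein 4.1, was the only 1 to pass in A253, where it rose (0.50). It also rose in SCC25 (0.80), where FRMD6 (0.53), FRMD4B (0.45) and FRMD8 (0.34) rose too. Over all genes 5.03% rose in A253 and 12.2% in SCC25. In CAL27 EPB41L1 rose again (1.31 as the mean of both knockdowns), from 6.47 and 9.34 CPM to 16.6 and 14.6 with sh 64 and 25.8 and 25.3 with sh 65.

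BMF moved in opposite directions in A253 and SCC25. In A253 it went from 6.32, 7.63 and 5.79 CPM in controls to 3.07, 4.15 and 3.06 CPM, without overlap, and the log2 change was -0.93 (SE 0.17). In SCC25 it went from 4.07 and 3.65 CPM to 5.69 and 5.89 CPM, again without overlap, and the log2 change was 0.59 (SE 0.19, adjusted p = 0.0212 by edgeR's quasi-likelihood test). The SCC25 call ended by DESeq2 (adjusted p = 0.228), without control replicate 2 (0.13), and without overexpression replicate 1 (0.0542) or 2 (0.132). The difference between the lines was 1.51 on the log2 scale.

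With knockdown in CAL27, BMF was at 3.95 and 5.71 CPM in controls, 5.23 and 4.50 CPM with sh 64, and 7.35 and 8.09 CPM with sh 65. The sh 65 libraries are above all others, and those of sh 64 lie between the controls. The change was -0.01 with sh 64 (adjusted p = 0.981) and 0.65 with sh 65 (SE 0.21, adjusted p = 0.0456, edgeR's quasi-likelihood test), and the difference between them did not pass (0.66, adjusted p = 0.0995). The call with sh 65 was lost in 8 of 11 alternatives, with adjusted p between 0.0226 and 0.291 over all 11. Leaving out either control replicate, or any 1 of the 4 knockdown libraries, was enough to end it. By level, sh 65, A253 controls and SCC25 with overexpression came first, sh 64, CAL27 controls and SCC25 controls next and A253 with overexpression last, and most neighbours in this order overlapped.

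No other tested member of the BCL2 family, whose proteins promote or restrain apoptosis, fell past the threshold in A253. Of all genes 2.94% fell there, and BMF was chosen on that contrast, so nothing is read from its falling alone. Of 17 other tested genes there, 2 passed, and both rose: the BAX-like BOK (0.78) and the BH3-only gene BID (0.42). In SCC25, 4 of 16 passed and rose: the BH3-only genes BBC3 (0.68), BCL2L11 (0.46) and BID (0.31), and BOK (0.56). Over all genes 5.03% rose in A253 and 12.2% in SCC25. BOK fell in CAL27 (-0.39), and PMAIP1, another BH3-only gene, rose there by 0.38.

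**Figure D3:**
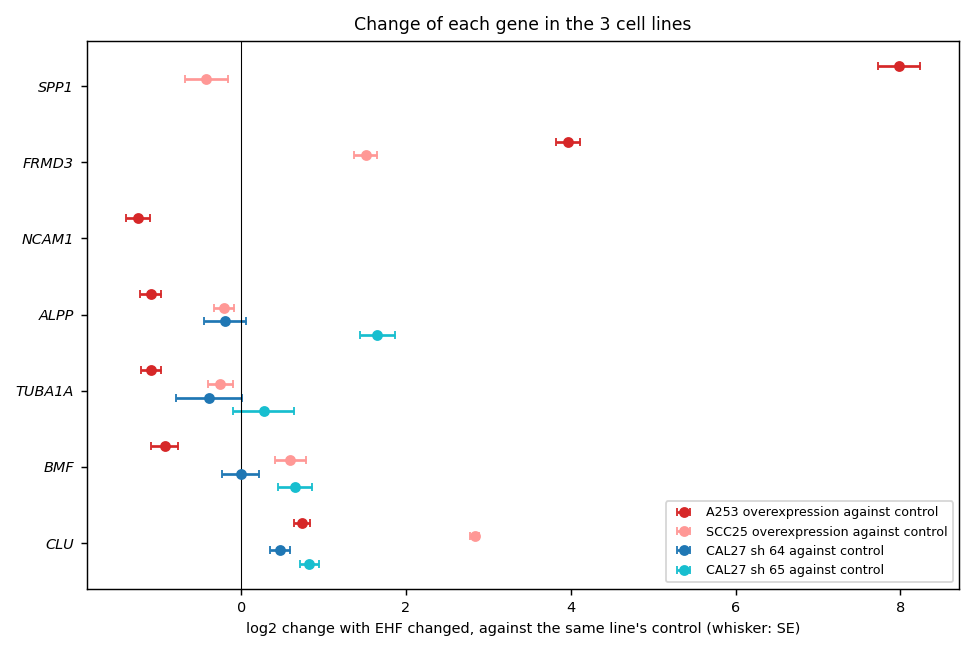
Log2 change of each gene (horizontal axis, whiskers are SE) in A253 and SCC25 with EHF raised and in CAL27 with EHF lowered by sh 64 or sh 65, each against its line's control. SPP1 at 7.98 and FRMD3 at 3.96 in A253 lie far right, and genes below the filter on low counts have no point.

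**Figure D4:**
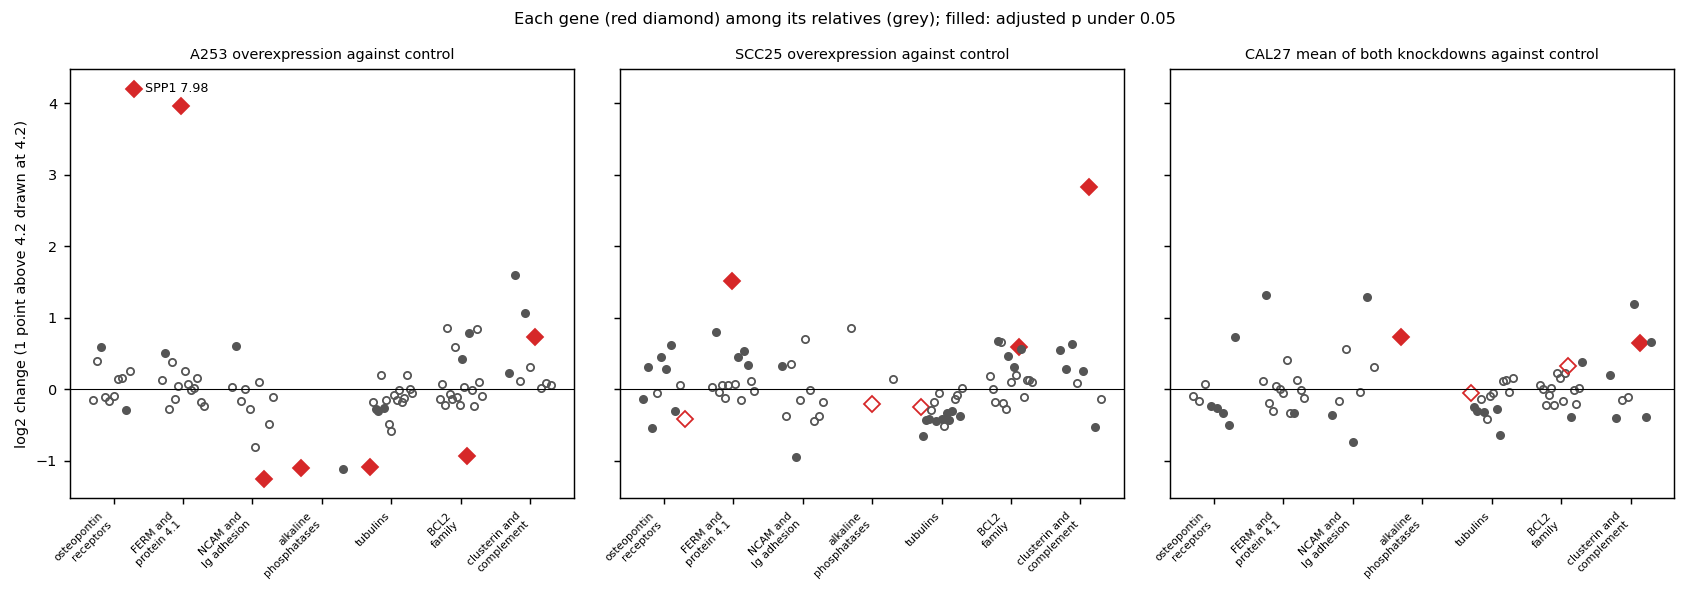
Log2 change (vertical axis) of each tested gene of 7 lists of relatives in A253, SCC25 and CAL27 (mean of both knockdowns), with the 7 genes as red diamonds and their relatives as grey circles, filled where the adjusted p was under 0.05. In A253 the diamonds lie outside or at the edge of most of their lists, having been chosen with that contrast, and SPP1 is drawn at the axis limit with its value.

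Per length, the order of the 7 genes changed with overexpression in A253. In controls ALPP (35.6 TPM) and CLU (29.8 TPM) were most abundant, followed by TUBA1A (13.4), BMF (2.84), NCAM1 (2.34), FRMD3 (0.461) and SPP1 (0.0641 TPM). With overexpression CLU led (48.7 TPM), and SPP1 (20.2 TPM) came before ALPP (16.4), FRMD3 (7.23), TUBA1A (6.12), BMF (1.46) and NCAM1 (0.974 TPM). Among the controls in CPM, A253 had the highest NCAM1, ALPP, TUBA1A, BMF and CLU of the 3 lines, and SCC25 the highest SPP1 and FRMD3. Line and table cannot be told apart in these levels. A sequencing run is not among the labels used here, and it may differ between lines as well.

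The genes whose pattern was most like each member were found by Pearson correlation of log2 CPM over the 16 libraries, among 15844 genes. The libraries share 3 lines, so a high r can rest on a difference between lines. For SPP1 these were ENPP2 (r = 0.90), CSF2RB (0.88) and MALT1 (0.87), and for CLU they were DOCK1 (0.95), FNBP1L (0.95) and MMP13, a collagenase (0.92). NCAM1 was matched most closely of all, by SC5DL (0.99), an enzyme of cholesterol synthesis, and BMF least, by B4GALT5 (0.80). After each line's control mean was subtracted, SPP1 was nearest to AASS (0.97), MACC1 (0.97) and MALT1 (0.95), FRMD3 to ALOX15 (0.97), VTCN1 (0.96) and the interferon factor IRF1 (0.96), and CLU to MGAT4A (0.95), FNBP1L (0.94) and HLA-E (0.94). ALPP was nearest to TP73 (0.92) and to DLX3 (0.92), the homeobox gene that was also its closest match by level (0.96). TUBA1A was nearest to TAGLN2 (0.93), BMF to BASP1 (0.93) and NCAM1 to DCBLD1 (0.94). After the subtraction a high r can rest on a single changed group. For SPP1 this is mainly A253 with overexpression, the contrast that chose it. Shared regulation was not tested.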

How the data were processed

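Messenger RNA of 16 libraries from 3 established cell lines was analysed; the ChIP and input libraries of CAL27 were not analysed here. Per the submitters' processing notes, TopHat2 2.1.1, Bowtie 1.1.1, featureCounts 1.5.3 and DESeq2 1.12.4 and the build hg19 were used. The authors deposited raw counts per gene symbol, 1 table per line, and TPM, of which the A253 and CAL27 tables served for gene lengths and name checks; the SCC25 TPM table was not used because its header is shifted. Gene names were altered in 696 rows of counts for CAL27, and names were taken by position from the A253 table, after lengths implied by counts and TPM were found equal (log2 tolerance 0.01) in 18450 of 18450 genes. The CAL27 count and TPM tables give sh 64 and sh 65 the other way round: zeros in the counts matched the other name for 100% of genes, and count-table names are used. The replicate numbers of the libraries called sh 64 here are reversed as well.

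Counts were tested with edgeR 4.0.16 in R 4.3.3 (filterByExpr, TMM, robust quasi-likelihood fit per line, all CAL27 groups in 1 fit, an interaction in a joint A253 and SCC25 fit), two-sided, with Benjamini-Hochberg adjustment over all genes tested and a threshold of 0.05. The method was tested on simulated data. TPM was recomputed from counts for all lines. Exact intervals for count ratios are at a confidence level of 0.95. Intervals and the floor of 3 counts cover counting error only. Members, lists, relatives and tests were chosen with earlier results of these data known. Named genes were the 7 members, EHF, near-identical copies, and list genes past the threshold and changed at least 1.5-fold (at most 4 per list and comparison); other list genes printed with smaller changes, or that missed the threshold, were named after their values were seen. Alternatives were other size factors, no filter, DESeq2, the replicate number as a block, only the groups compared, and leaving out each library.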

Additional observations from a re-analysis of the deposited data

Results flagged for a closer look

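A joint fit of both overexpression lines found that the effect of overexpression differed between SCC25 and A253 for 5 of the 7 genes. As SCC25 minus A253, the log2 difference was -8.41 for SPP1, -2.47 for FRMD3, 0.83 for TUBA1A, 1.51 for BMF and 2.08 for CLU. These genes were called line-specific with these values known, so the differences are descriptions. EHF itself rose less in SCC25 than in A253, by -2.05 on the same scale. Line and the size of the EHF rise cannot be told apart in them. In CAL27, the knockdowns differed from each other for ALPP, which was 1.85 higher on the log2 scale with sh 65 than with sh 64. EHF was within -0.16 of the same level in both.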

How the results depend on the processing

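Of the log2 changes of single genes under the alternatives, 349 kept direction and side of the threshold, 21 lost the call, 7 gained it and 8 turned sign. All 70 in A253 kept both, which says nothing of their stability, since that contrast chose the genes. The sign turned only for values that did not pass: ALPP in SCC25 ran from -0.41 to 0.029 with 1 library left out, TUBA1A in CAL27 (mean of both knockdowns) from -0.51 to 0.21, ALPP with sh 64 from -0.64 to 0.30, and BMF with sh 64 from -0.18 to 0.30. By DESeq2 the last was 0.0071 and with the replicate block 0.027. The number of the 7 genes past the threshold was 1 to 2 for the mean of the CAL27 knockdowns and 0 to 1 for sh 64 with 1 library left out. For sh 64 it was 0 by DESeq2, where 1 gene had an unadjusted p under 0.05, and by edgeR it was 1. The cause was not tested. Adjusted p by DESeq2 was not given for TUBA1A in 3 CAL27 comparisons and stays out of these counts. ALPP passed in the difference between lines in 5 of 14 alternatives, and TUBA1A lost its pass there in 2.

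Replicate numbers showed no clear pairing in A253 or SCC25, where same-numbered libraries correlated at -0.19, 0.01 and 0.18, and at -0.03. In CAL27 they correlated at -0.01 to 0.15, and whether libraries were paired there is not settled. The replicate numbers of the libraries called sh 64 here are also reversed between the deposited counts and TPM. With the replicate number as a block, sh 65 against sh 64 gave 2 genes, ALPP and CLU (adjusted p = 0.0498), and in the other comparisons the number of the 7 genes past the threshold kept within 1.5 times of that given. Over all genes the block moved sh 65 against sh 64 from 728 to 1260 genes past the threshold. It also raised the mean of the CAL27 knockdowns from 2560 to 3317, sh 64 from 2133 to 2968 and sh 65 from 1994 to 2715. DESeq2 lowered the number over all genes, and with it the shares set beside the members, from 3370 to 1589 in SCC25, 2560 to 1481 for the mean of the CAL27 knockdowns, 2133 to 1221 for sh 64, 1994 to 1217 for sh 65, 728 to 450 for sh 65 against sh 64 and 871 to 536 for the difference between lines.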
